A study of Rattus norvegicus with 24 samples.

Results

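Cytosolic ribosomal proteins are the protein parts of the ribosome that translates nuclear messages. They were taken here as the annotated genes whose symbol is Rpl or Rps followed directly by a number, together with Rplp0, Rplp1, Rplp2 and Rpsa, without the Rps6k kinases and pseudogenes. The rule found 48 of the 14217 genes with a probe set of their own, namely 28 proteins of the large subunit, 13 of the small subunit, the stalk protein Rplp0 and 6 paralogues (Rpl26l1, Rpl7l1, Rps27l, Rpl39l1, Rpl3l and Rps4y2). A further 36 probe sets are annotated to several genes at once with a ribosomal protein symbol among them, and are given only as a group.

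RNA was measured on 24 Affymetrix arrays in INS-1E, an established rat insulinoma line that makes insulin. Cells received a cocktail of IFN-g at 50 ng/ml, TNF-a at 25 ng/ml with IL-1b at 10 ng/ml, or no cytokines, combined with 10 uM of the compound BRD0476 or with the solvent DMSO. The 8 groups of 3 arrays were cytokines with BRD0476, cytokines with DMSO, BRD0476 alone and DMSO alone (called untreated here), each at 6 h and at 12 h. All come from 1 cell line and nothing in the labels says that arrays of a group came from separate cultures, so the p-values reflect array-to-array variation alone, which may be technical.

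Each ribosome joins a small subunit, which reads the message, to a large subunit, which forms the peptide bond. Their proteins are made in matched amounts, and most of their messages begin with a run of pyrimidines (the 5′ terminal oligopyrimidine, or TOP, motif) through which the mTOR kinase and the protein Larp1 set how much of them is translated. Output of ribosomal proteins is therefore controlled largely at translation, which an array of RNA levels does not measure. In beta cells the ribosomes also make insulin, and cytokines, which damage beta cells, are known to lower its synthesis.

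The mean log2 signal of 7 beta-cell genes lay between 13.20 (Slc2a2) and 14.54 (Ins1) in 5 of them, and at 10.78 for Pdx1 and 8.38 for Nkx6-1. Of the hormones of other islet cells, Gcg (glucagon) was at 10.14 and Sst, Ppy and Ghrl lay between 3.76 and 4.19. Markers of leukocytes, fibroblasts and exocrine cells lay between 2.90 and 4.72, and those of endothelium at 5.60 (Kdr), 3.42 (Tek) and 3.28 (Pecam1). Within groups, the correlation between arrays was 0.992 to 0.999 over all genes. Brightness on an array depends on the probes as well as on the RNA, so a rank by brightness describes probe sets and not amounts of RNA.

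The sequences around the annotated start show which members carry a run of pyrimidines at that base and which lack it there. Whether such a run acts on translation in these cells was not tested. Promoter entries of RefSeq, build GRCr8, matched 41 of the 48 members by gene ID. Of these, 11 (26.8%) had C at the start base and 5 or more C or T from it on, against 722 of 27457 promoters (2.63%) in the whole table. A run of 8 or more C or T within 10 bases of the start base was found in 18 of 41 (43.9%), against 7.25% of all promoters. The windows below hold 10 bases before and 20 bases from the start base on, with the pyrimidine run at the start base in capitals.
Rpl19 (large subunit, chr10:83519054-83519083, plus strand): ccagcaagctCTTTCCTTTCgctgctgcgt
Rplp0 (stalk, chr12:46718371-46718400, minus strand): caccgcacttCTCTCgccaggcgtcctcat
Rps15 (small subunit, chr7:10068096-10068125, minus strand): acaccgcttcCTTTTCCCagcagccgccaa
Rpl35 (large subunit, chr3:43165902-43165931, minus strand): cttcctctttCTCTCgaaccgggcggcctc
Rpl4 (large subunit, chr8:73566467-73566496, plus strand): tcttccttttCCTgtgggagcagccgggta
Rpl26 (large subunit, chr10:54109682-54109711, plus strand): gtcaacttacagaaccggaagtcgcatgta
Rpl26l1 (paralogue, chr10:17029009-17029038, minus strand): tcatttccgggcctgcgcacacaccaccgg
Rpl7l1 (paralogue, chr9:21695708-21695737, plus strand): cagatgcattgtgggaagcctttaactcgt
The first 4 carry the run at the annotated base, Rpl4 has most of its pyrimidines just before that base, and the other sequences have no run there. A start base annotated a few positions off would miss the motif, so its absence says only that these letters are not in this place. The core of the interferon-stimulated response element, GAAA and GAAA with any 2 bases between them on either strand, occurred in 2 of the 41 members (4.88%) over 250 bases before to 50 after the start, and in 3.77% of all promoters. It was not in the windows of Rpl26l1 or Rpl7l1.

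Ribosomal protein transcripts varied little across the 8 groups. Of the 48 genes, 38 lay in the brightest 10% of all genes, with means over all arrays of 12.00 to 14.05. The 3 brightest were Rpl27a, Rps23 and Rpl19. Across the 8 groups, the means of a ribosomal protein gene spanned a median of 0.12 on the log2 scale, against 0.51 for all genes and 0.49 for the other 1384 genes of the brightest 10%. The span was under 0.3 in 45 of the 48 and in 24.2% of all genes. It was narrowest in Rpl6 (13.46 to 13.50), Rpl26 (13.88 to 13.93) and Rpl19 (13.95 to 14.01). The 3 that spanned more were Rpl26l1 at 1.46, Rpl7l1 at 0.54 and Rpl28 at 0.31, all below the brightest 10%. Their means were 5.75, 9.86 and 6.55, so Rpl26l1 and Rpl28 lay below the median of gene means (7.27). The 45 include 5 dim probe sets with means under the lower quartile of gene means (4.49). Averaged over the 38 bright members, the signal was between 13.31 and 13.36 in every group. The highest value of any member on any array was 14.11 and the highest in the table was 14.60 (Ins1), and compression of changes near the top of the scale was not tested.

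**Figure D1:**
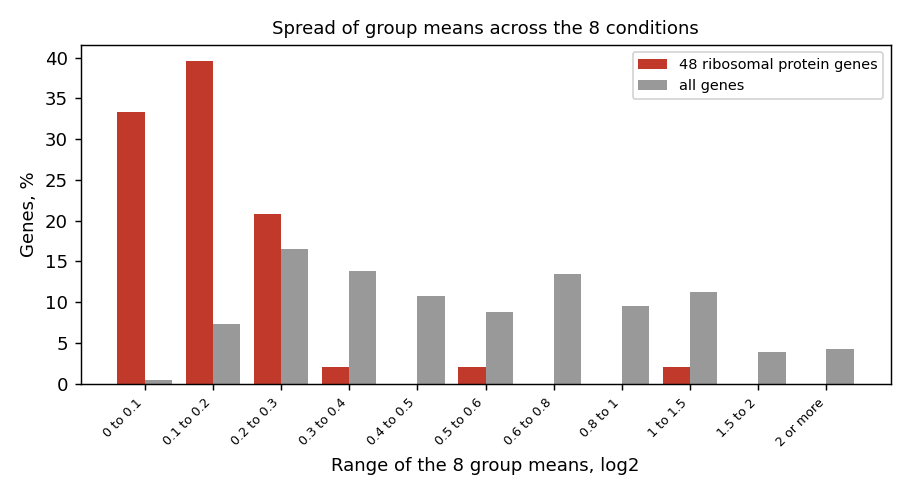
Share of genes (%) by the range of their 8 group means (log2) for the 48 ribosomal protein genes (red) and all 14217 genes (grey). The bins under 0.3 hold 45 of the 48 ribosomal protein genes and 24.2% of all genes, and the only red bar past 1 is Rpl26l1.

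The first comparison asks which of these genes responded to cytokines. With cytokines for 6 h, 8 of the 48 were called higher and 1 lower than in untreated cells, 18.8% in all. Of all genes 51.7% were called, 24.3% higher and 27.4% lower, and 70.2% of the other genes of the brightest 10% were called. A call means an adjusted p under 0.05 in limma, with Benjamini-Hochberg adjustment over all 14217 genes. The split depended on scaling, with 7 members higher and 4 lower after quantile normalization and 17 higher and 0 lower after centring on the other genes of the brightest 10%. Under these settings 7436 and 7772 of all 14217 genes were called, in the same order. The median log2 change was 0.02 in the ribosomal protein genes, 0.00 in all genes and -0.14 in the other genes of the brightest 10%. In 13 of the 48 the 3 arrays of one group lay wholly beyond those of the other, against 53.3% of all genes. Every bright member had a 95% interval within 0.5 of zero on the log2 scale, and 26 of the 38 had one within 0.2.

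**Figure D2:**
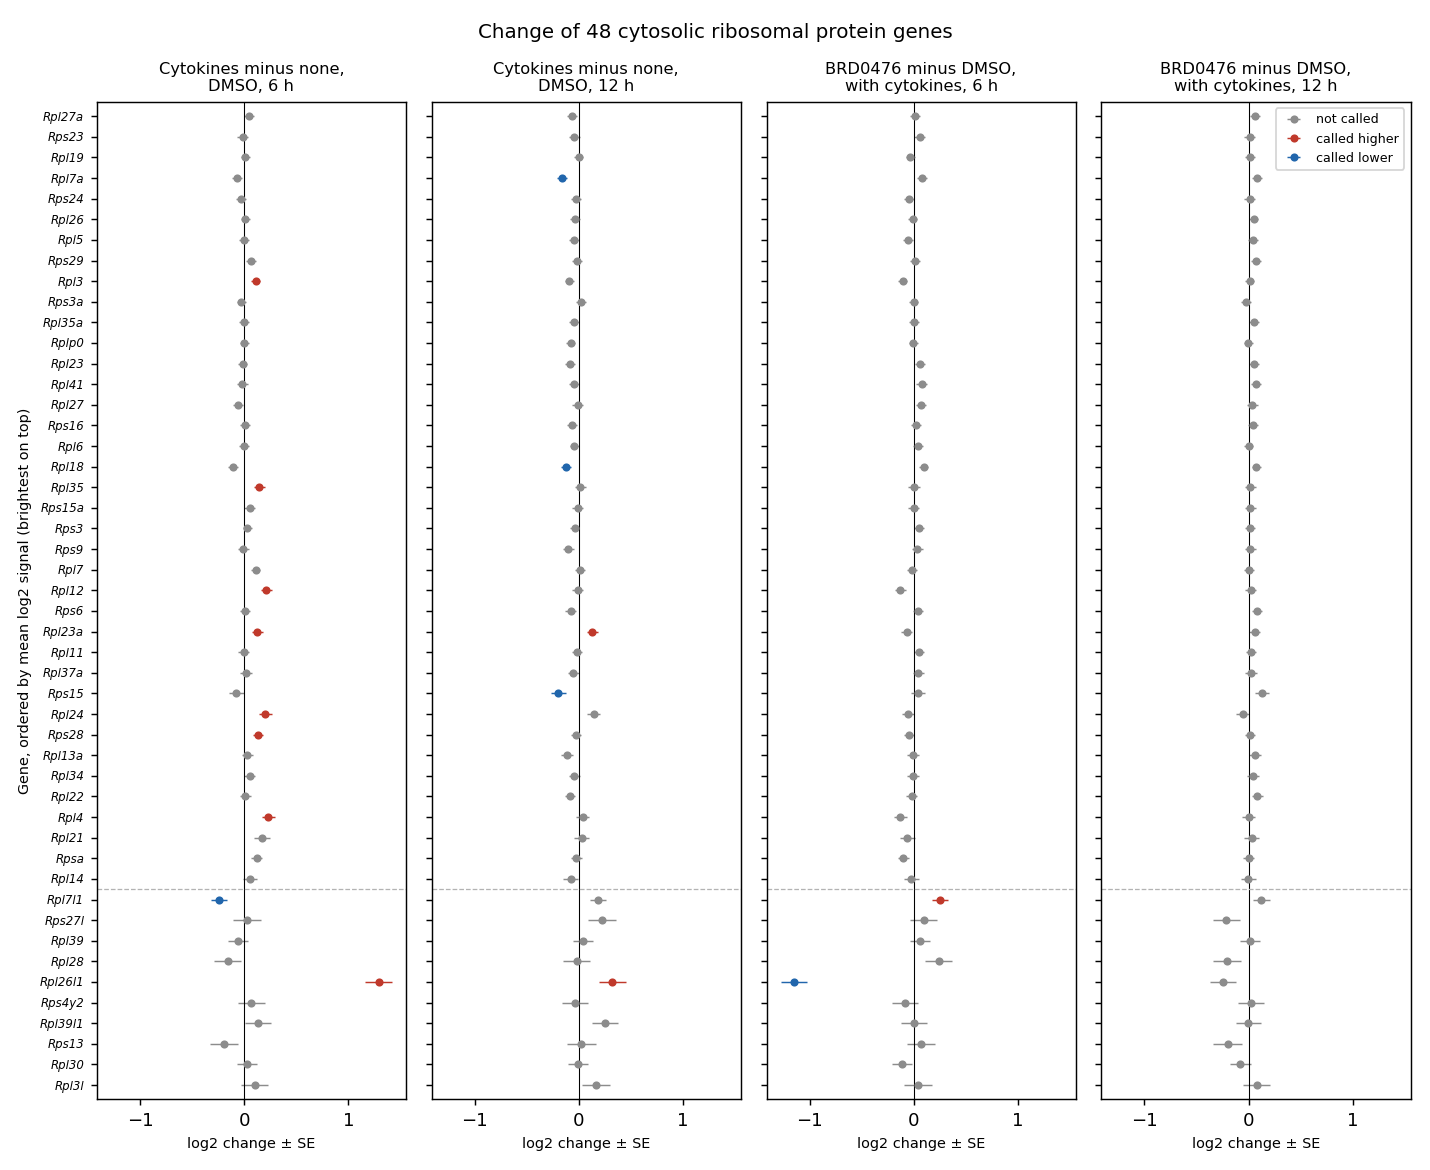
Log2 change ± SE (limma, 3 arrays per group) of each of the 48 genes in 4 comparisons, ordered by mean signal, with the 10 genes below the brightest 10% under the dashed line. Red and blue points passed the test. The bright genes stay close to zero in all 4 panels, and Rpl26l1 is the only gene past 1, higher with cytokines at 6 h (1.29) and lower when BRD0476 was added (-1.15).

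Rpl26l1, a paralogue of the large-subunit protein Rpl26, was the single member that changed more than 2-fold. At 6 h it read 6.95, 6.85 and 6.69 with cytokines in DMSO, against 5.45, 5.66 and 5.50 in untreated cells. All cytokine arrays lay more than 1 above all untreated arrays. The rise was 1.29 ± 0.13 (SE, limma adjusted p = 2.12e-08), or 2.45-fold. Rpl26 itself, which has its own probe set, read 13.91, 13.93 and 13.92 with cytokines against 13.92, 13.93 and 13.87 in untreated cells, a difference of 0.01 with a 95% interval of -0.08 to 0.11. Rpl26l1 has a single probe set, so no second one bears on its rise.

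The other 7 called rises at 6 h were of 1.08- to 1.17-fold and all in bright members. Rpl4, whose extension lines the exit tunnel for nascent chains, read 12.67, 12.75 and 12.78 with cytokines against 12.50, 12.41 and 12.59 in untreated cells, a rise of 0.23 ± 0.06 (limma adjusted p = 0.0032). Rpl12, at the base of the stalk that recruits elongation factors, read 13.46, 13.41 and 13.53 with cytokines against 13.21, 13.34 and 13.21, a rise of 0.21 ± 0.05 (limma adjusted p = 0.00195). The groups do not overlap in either gene, and the gap between the nearest arrays is under 0.1. Rpl24 rose by 0.20, Rpl35 by 0.15, Rps28 by 0.14, Rpl23a by 0.13 and Rpl3 by 0.11. Rpl35 and Rpl23a sit at the tunnel exit, where Rpl23a contacts the signal recognition particle, and Rpl3 lies near the peptidyl transferase centre. Rps28 belongs to the small subunit. Of the rises in bright members, only that of Rpl12 passed when each array was centred on the median of its genes (adjusted p between 0.0613 and 0.241 in the others), and none passed when only these 6 arrays were fitted. Without replicate 2 of the untreated 6 h arrays 4 members were called higher in place of 8, and without replicate 2 of the cytokine arrays 5. Rpl4 and Rpl12 kept their calls whichever array was left out. Rpl24 lost it without replicate 2 of the untreated arrays (adjusted p = 0.0594), Rpl35 without that array (0.145) or replicate 3 of the cytokine arrays (0.139), and Rps28 without untreated replicates 2 or 3 or cytokine replicate 2 (0.0529 to 0.0614). Rpl3 lost it without untreated replicates 2 or 3 or cytokine replicates 1 or 2 (0.0622 to 0.0774), and Rpl23a without any array but cytokine replicate 3 (0.0553 to 0.134).

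Members known for signalling or stress roles gave no call at 6 h. Rplp0, the stalk protein often used as a reference in expression assays, read 13.56, 13.55 and 13.59 with cytokines against 13.55, 13.60 and 13.55 in untreated cells, a difference of 0.00 with a 95% interval of -0.09 to 0.09. Rpl5 and Rpl11, which bind the p53 regulator Mdm2 when ribosome assembly fails, both differed by -0.01 (limma adjusted p = 0.937 and 0.941). The differences of Rps6, the substrate of S6 kinases, of Rpl13a, which in human monocytes leaves the ribosome after interferon-gamma, and of Rps3, which in human cells also binds NF-κB, were 0.01, 0.03 and 0.03, and none was called. Rpsa, also known as a laminin receptor precursor, had a difference of 0.12 that missed the threshold (limma adjusted p = 0.0649); 1 of its other probe sets was called higher, by 0.31. Rpsa was called higher with the mean of its probe sets (0.18, adjusted p = 0.0186), after centring on the brightest 10% (0.22, 0.00215), with dim genes left out (0.0388), with the intensity trend (0.0196), and without replicate 2 of the untreated arrays (0.0195) or replicate 1 of the cytokine arrays (0.0276). Rps3 was called higher only after centring on the brightest 10% (0.13, adjusted p = 0.0237).

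Rpl7l1 was the one member called lower at 6 h. Its relative in yeast acts in the assembly of the large subunit. It read 9.64, 9.61 and 9.43 with cytokines against 9.75, 9.75 and 9.90 in untreated cells, so that it fell by 0.24 ± 0.08 (limma adjusted p = 0.0149). Its second probe set differed by -0.06, and the mean of both missed the threshold (-0.15, limma adjusted p = 0.131). The call was also lost without replicate 3 of the untreated arrays (adjusted p = 0.0831) or replicate 3 of the cytokine arrays (adjusted p = 0.096), with the same sign. Among the other paralogues, Rps27l, a p53 target in human cells, read 7.75, 7.70 and 7.76 with cytokines against 7.81, 7.31 and 8.01, with overlapping arrays. Rpl3l, found mainly in striated muscle, Rpl39l1 and Rps4y2 lay under the lower quartile of gene means (4.49), as did the probe sets of Rps13 and Rpl30. For these 5, and for Rpl28 and Rpl39 at means of 6.55 and 6.66, no cytokine change was called at either time. Other settings called 2 bright members lower at 6 h. Rpl18 (-0.10) was called with quantile normalization (adjusted p = 0.0149), with dim genes left out (0.0293) and with the intensity trend (0.00511). It was also called without replicate 1 of the cytokine arrays (0.0481). Rpl7a was called with quantile normalization (-0.14, adjusted p = 0.0496).

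After 12 h with cytokines, 2 members were called higher and 3 lower, 10.4% of the 48. Of all genes 45.9% were called, 16% higher and 29.9% lower, as were 62.1% of the other genes of the brightest 10%. After median centring the members split into 5 higher and 0 lower. The median change was -0.03 in the ribosomal protein genes, -0.04 in all genes and -0.14 in the other genes of the brightest 10%. Rps15, which the small subunit needs to mature, read 13.00, 12.79 and 13.00 with cytokines against 13.10, 13.11 and 13.17 in untreated cells, so that it fell by 0.20 ± 0.07 (limma adjusted p = 0.0251). Rpl7a fell by 0.16 (limma adjusted p = 0.00867) and Rpl18 by 0.12 (limma adjusted p = 0.0298), both proteins of the large subunit. The arrays of the groups do not overlap in any of these 3 falls. The same held for 11 of the 48 members (22.9%) at 12 h, called or not, and the share over all genes is not given for that time. None of the 3 was called after centring on array medians (-0.11, -0.07 and -0.03 in the same order), so a small fall with cytokines at 12 h depends on the scaling. Leaving out replicate 2 of the cytokine arrays ended the calls of Rps15 (adjusted p = 0.171) and Rpl7a (0.054), and replicate 3 of the untreated arrays that of Rps15 (0.0874). Rpl18 lost its call without any 1 of the untreated arrays (0.0564 to 0.0761) or replicate 3 of the cytokine arrays (0.125).

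Rpl23a was the only bright member called higher at 12 h, by 0.13 (limma adjusted p = 0.0477), and it lost the call in each fit without 1 of the 6 arrays (adjusted p of 0.0528 to 0.113). Rpl26l1 read 6.14, 5.70 and 5.83 with cytokines against 5.33, 5.71 and 5.67 in untreated cells. The arrays overlap, and the call of 0.32 (limma adjusted p = 0.0458) was lost without replicate 1 of the untreated arrays (0.20, adjusted p = 0.25), without replicate 1 of the cytokine arrays (0.20, 0.249) and without replicate 3 of the cytokine arrays (0.35, 0.0557). Rps27l read 7.97, 7.85 and 7.93 with cytokines against 7.75, 7.62 and 7.72, a difference of 0.22 that was not called (limma adjusted p = 0.188). Its arrays do not overlap, as in other members that were not called. Rps27l was called when only these 6 arrays were fitted (adjusted p = 0.0418). Rplp0 differed by -0.08 and Rpl13a by -0.11, and neither was called. Both were called lower with the intensity trend (adjusted p = 0.0242 for Rplp0 and 0.0372 for Rpl13a), and Rpl13a also without replicate 3 of the cytokine arrays (0.0331).

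The change with time was tested directly, as the cytokine effect in DMSO at 12 h minus that at 6 h. It was called in 4 of the 48 members (1 higher, 3 lower), 8.33%, against 28.8% of all genes (11.8% higher, 16.9% lower). The difference was -0.97 ± 0.18 for Rpl26l1, on the log2 scale (limma adjusted p = 0.000293). It was -0.22 for Rpl12 (limma adjusted p = 0.0305) and -0.20 for Rpl3 (limma adjusted p = 0.0135), and neither passed after median centring (adjusted p = 0.412 and 0.48). That of Rpl12 was also lost without untreated replicates 1 or 3 or cytokine replicate 3 at 6 h, and without untreated replicate 3 or cytokine replicate 2 at 12 h (adjusted p of 0.0728 to 0.0849). For Rpl7l1 it was 0.42 ± 0.11 (limma adjusted p = 0.00673), from arrays of 9.99, 10.15 and 9.81 with cytokines against 9.77, 9.81 and 9.83 in untreated cells at 12 h, a difference that was itself not called (0.18, limma adjusted p = 0.0677). That difference was called after median centring (0.27, adjusted p = 0.0067), with quantile normalization (0.026), after centring on the brightest 10% (0.0127), with dim genes left out (0.0496), with the intensity trend (0.0459) and without replicate 3 of the cytokine arrays (0.00898). In untreated cells no member was called at 12 h against 6 h, where 1.67% of all genes were. An unadjusted p under 0.05 was found in 3 of the 48 members and in 1514 of all 14217 genes, and no other setting called a member. The median change was 0.03 in members and 0.01 in all genes.

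**Figure D3:**
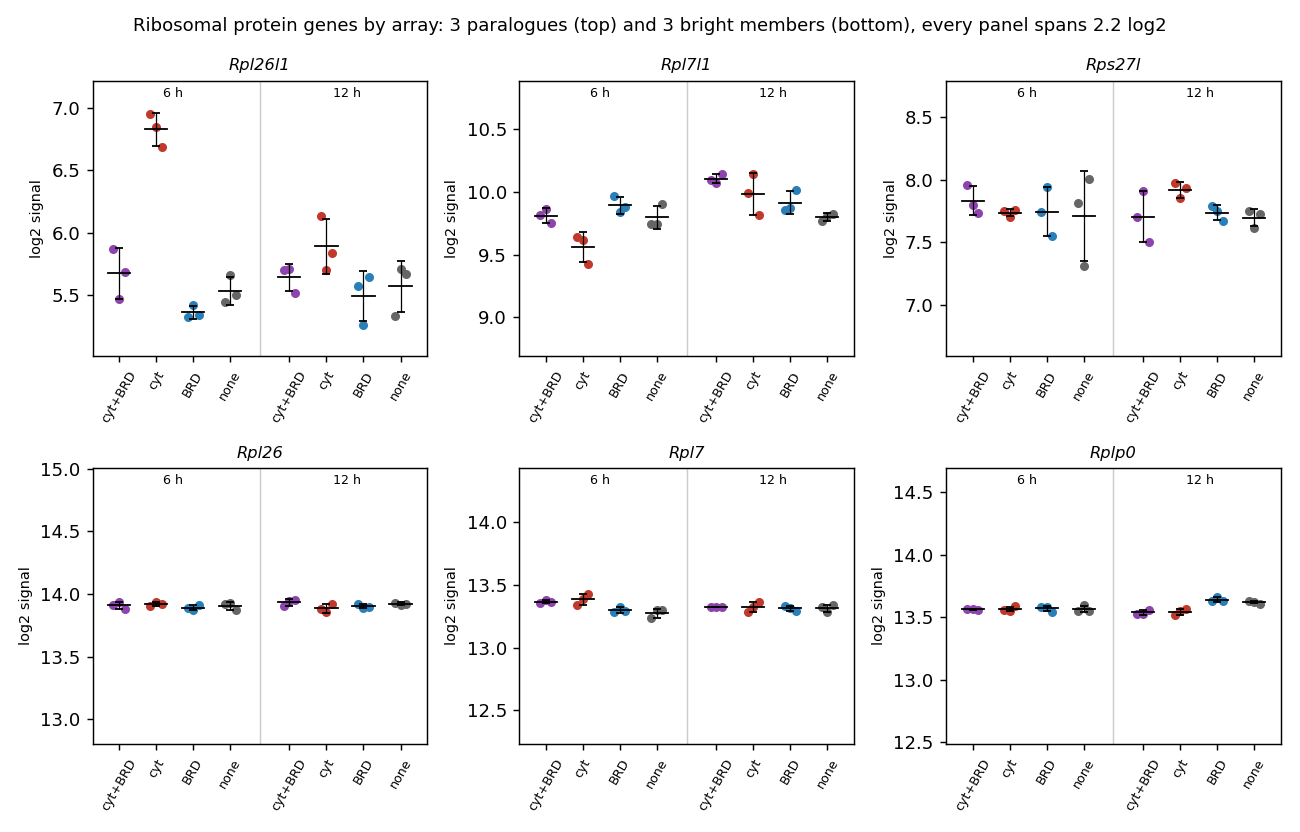
Log2 signal on each array (points), with the mean and SD (bars) of 3 arrays, for 3 paralogues and 3 bright members; cyt+BRD is cytokines with BRD0476, cyt cytokines with DMSO, BRD BRD0476 alone and none DMSO alone. Rpl26l1 is high in the cytokine group at 6 h (6.69 to 6.95) and at most 6.14 in every other group, while Rpl26 stays between 13.85 and 13.95 on all 24 arrays.

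The next comparison asks what BRD0476 did in the presence of cytokines; it shares the arrays with cytokines in DMSO with the comparison above. At 6 h, 1 member was called higher and 1 lower, 4.17% of the 48, whereas 44% of all genes were called (24.7% higher, 19.4% lower), and 64.4% of the other genes of the brightest 10%. The median change was 0.00 in members and in all genes, and 0.15 in the other genes of the brightest 10%. Rpl26l1 read 5.87, 5.47 and 5.68 with cytokines and BRD0476, against 6.95, 6.85 and 6.69 with cytokines and DMSO, so that it fell by 1.15 ± 0.13 (limma adjusted p = 2.14e-07). The highest array with BRD0476 lay 0.8 below the lowest array without it. In BRD0476 alone it read 5.32, 5.42 and 5.34. The difference between the BRD0476 effects with and without cytokines at 6 h was -0.98 ± 0.18 (limma adjusted p = 0.00022), the only interaction called among the 48 genes, where 33.2% of all genes had one (14.4% with a lower value, as here).

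Rpl7l1 rose with BRD0476 by 0.25 ± 0.08 (limma adjusted p = 0.0133), to 9.82, 9.87 and 9.75 against 9.64, 9.61 and 9.43 with cytokines alone. As with its fall, the mean of its 2 probe sets was not called (0.15, limma adjusted p = 0.144), and the call was lost without replicate 3 of the cytokine arrays (adjusted p = 0.0842) or replicate 2 of those with BRD0476 (0.0575). Its interaction was not called (0.15 ± 0.11, limma adjusted p = 0.323). None of the 38 bright members was called, and 34 of them had a 95% interval within 0.2 of zero. Rpl4 and Rpl12, the bright members with the greatest cytokine rises, both differed by -0.13. Other settings did call bright members lower, with 11 of the 48 genes called lower after centring on the brightest 10% and 4 with the intensity trend, Rpl26l1 included. The bright members called lower under the trend were Rpl4 (adjusted p = 0.0345), Rpl12 (0.00839) and Rpl3 (0.00174). The trend also called a bright member higher, Rpl18 (0.09, adjusted p = 0.0133). Rpl28, in the large subunit, had the next largest interaction, 0.47 ± 0.19, which missed the threshold (limma adjusted p = 0.0597) and passed it after median centring (adjusted p = 0.0298), with quantile normalization (0.0252) and with dim genes left out (0.0475).

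With cytokines at 12 h BRD0476 gave no call among the 48 genes in limma, where 26.9% of all genes were called. No member had an unadjusted p under 0.05, where 5134 of all 14217 genes did. Other settings called between 0 and 3 members, with 3 under quantile normalization, where 3753 of all genes were called. Rpl26l1 read 5.71, 5.71 and 5.52 with BRD0476 against 6.14, 5.70 and 5.83 without it, a difference of -0.25 that was not called (limma adjusted p = 0.173) but was after median centring (-0.32, adjusted p = 0.0469). No interaction was called in limma at 12 h, where 15.3% of all genes had one. An unadjusted p under 0.05 was found in 0 members and in 3611 of all 14217 genes, and other settings called at most 1 member. BRD0476 alone gave no call among the 48 genes at 6 h or at 12 h, against 3.53% and 4.66% of all genes. No member had an unadjusted p under 0.05 at either time, where 2151 and 2247 of all 14217 genes did. No other setting called a member. In those cells the changes of the 38 bright members lay between -0.07 and 0.07 at 6 h and between -0.07 and 0.08 at 12 h.

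The 36 probe sets shared by several genes had a median level of 13.39. With cytokines at 6 h, 5 of them were called higher and 2 lower, with a median change of 0.04, in a test over 31042 probe sets of which 41.6% were called. At 12 h, 1 was called, lower, against 35.3%. BRD0476 with cytokines raised 3 at 6 h, against 33.8%, and none at 12 h, against 18.2%. Among 7 further probe sets of members, a dim one of Rps24 (mean 4.57) was called lower with cytokines at 12 h, by 0.68, while its bright one differed by under 0.05.

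Other genes of translation were taken from lists of ribosome partners, elongation factors, initiation factors, assembly factors and growth regulators. Of these, 11 of 33 initiation factors were called higher and 6 lower with cytokines at 6 h, as were 25 and 10 of 68 assembly factors, 12 and 8 of 27 growth regulators, 4 and 4 of 13 elongation factors, and 2 and 0 of 3 partners. The median change was 0.03 in initiation factors, 0.12 in assembly factors, 0.18 in growth regulators and 0.00 in elongation factors. Of all genes 24.3% were called higher and 27.4% lower, and a share near these is no result about a list. The difference between these lists and the ribosomal proteins was not tested. Naca, a chaperone of nascent chains, rose by 0.49 and Rack1, a scaffold on the small subunit, by 0.17. Among initiation factors, Eif1a, which positions the start codon, rose by 0.96, Eif2b3 by 0.72 and Eif3a by 0.56, whereas Eif1b fell by 0.64. Rrp9 and Nob1, which process ribosomal RNA, rose by 1.14 and 0.86, whereas Imp3, another processing factor, fell by 0.90.

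Elongation itself is restrained by Eef2k, the kinase that phosphorylates the translocase Eef2. Eef2k read 6.43, 6.49 and 6.48 with cytokines at 6 h against 8.56, 8.61 and 8.59 in untreated cells, so that it fell by 2.12 ± 0.13 (limma adjusted p = 1.24e-11). Eef2 read 13.12, 13.01 and 12.77 against 12.49, 12.62 and 12.49, a rise of 0.43 ± 0.10 (limma adjusted p = 0.000561). With BRD0476 added at 6 h, Eef2k was higher by 0.72 and Eef2 lower by 0.38 than with cytokines alone, both called. At 12 h the cytokine differences were -0.62 for Eef2k (called) and 0.19 for Eef2 (not called). Those of BRD0476 with cytokines at 12 h, 0.17 and 0.03, were not called. Eef2k also differed by -0.53 between 12 h and 6 h in untreated cells, which was called. Of the 13 elongation factors, 4 were called higher and 4 lower with cytokines at 6 h, with Eif5a2 (-0.79) and Eef1d (-0.23) among the falls.

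Myc, a transcription factor known to drive ribosomal protein genes, read 10.03, 9.98 and 10.08 with cytokines at 6 h against 8.61, 8.63 and 8.76 in untreated cells, a rise of 1.36 ± 0.07 (limma adjusted p = 2.01e-12). With cytokines and BRD0476 it read 7.68, 7.84 and 7.83, and fell by 2.25 relative to cytokines alone (limma adjusted p = 3.39e-15). With BRD0476 alone at 6 h it read 7.95, 7.93 and 8.08, which was also called lower than in untreated cells. At 12 h Myc read 8.05, 7.79 and 7.96 with cytokines against 8.38, 8.43 and 8.50 in untreated cells. At 6 h the mean of the 38 bright ribosomal protein genes was 13.35 with cytokines and BRD0476, 13.35 with cytokines and 13.31 in untreated cells. At 12 h it was 13.35, 13.31 and 13.35 in the same order. Mxd1 and Mnt, which compete with Myc for its partner Max, rose by 1.57 and 0.96 at 6 h. Eif2ak2, the interferon-induced kinase that blocks initiation, rose by 1.80 at 6 h, and at 12 h it averaged 10.93 with cytokines against 7.92 in untreated cells, also called. At 12 h the counts were 4 higher and 12 lower of 27 growth regulators, 6 and 10 of 33 initiation factors, 10 and 17 of 68 assembly factors, 2 and 3 of 13 elongation factors, and 1 and 0 of 3 partners, where 16% of all genes were called higher and 29.9% lower. Deptor, an inhibitor of mTOR, fell by 1.87 at 12 h, and Pdcd4, an inhibitor of the initiation helicase, fell by 1.14.

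**Figure D4:**
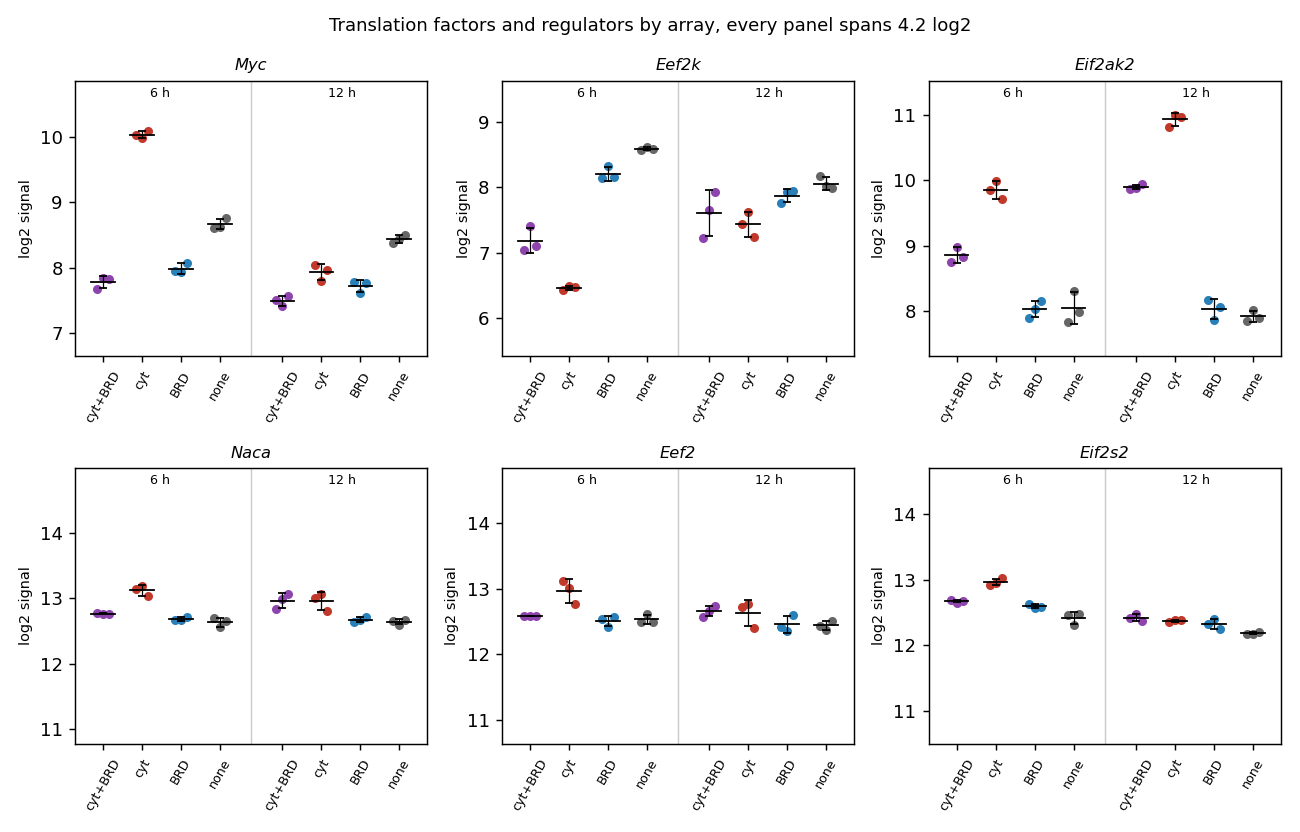
Log2 signal on each array (points) with the mean and SD of 3 arrays for 6 genes of the translation lists, each panel spanning 4.2 on the log2 scale, groups named as in the plot of paralogues. Myc and Naca are highest with cytokines and DMSO at 6 h, where Eef2k is lowest, while Eif2ak2 is higher with cytokines at 12 h than at 6 h.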

How the data were processed

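The authors deposited 1 table of linear intensity values for 31099 probe sets, made with RMA per the submitters' processing notes; its version and chip definition are not given in the sources used here. RMA as usually run equalises the distributions of arrays, so a change shared by most genes would not be seen. Deposited intensities were taken to log2. The platform annotation left 20826 probe sets with 1 symbol after 57 controls, and 14217 genes, each represented by its probe set of highest mean. Limma 3.58.1 in R 4.3.3 fitted a mean for each of the 8 groups over 24 arrays (16 residual and 3.97 prior degrees of freedom), with 10 contrasts and Benjamini-Hochberg adjustment over all genes of a contrast. With 3 arrays against 3 an exact test cannot go below p = 0.1. The steps were tested on simulated data. Alternatives were 3 scalings, the mean of probe sets, a filter on dim genes, an intensity trend with a robust prior, the replicate block, only the arrays compared, and each array left out.

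Members and gene lists were chosen with earlier results of these data known. Genes named are the 6 largest called rises and falls per comparison, a panel of well-known members, the 3 brightest and dimmest and the 3 with the widest and narrowest range, and up to 4 called genes per translation list; Rpl7, Rps24, Rpl39l1 and Rps4y2, outside the rule, were named after their values were seen. The columns of the table were all used. Array number limits the precision. Sequences are from RefSeq's promoter table of GRCr8.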

Additional observations from a re-analysis of the deposited data

Results flagged for a closer look

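Rpl26l1 differed in its response to BRD0476 between cells with and without cytokines at 6 h, by -0.98 on the log2 scale (limma adjusted p = 0.00022). BRD0476 lowered it by 1.15 with cytokines and the difference of -0.17 without them was not called.

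The cytokine effect in DMSO differed between 12 h and 6 h in 4 members. For Rpl26l1 the difference was -0.97 (0.32 at 12 h and 1.29 at 6 h), for Rpl12 -0.22 (-0.01 and 0.21), for Rpl3 -0.20 (-0.09 and 0.11) and for Rpl7l1 0.42 (0.18 and -0.24). Those of Rpl12 and Rpl3 were not called after median centring (adjusted p = 0.412 and 0.48), nor that of Rpl7l1 with the mean of its probe sets (adjusted p = 0.0948).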

How the results depend on the processing

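The rise of Rpl26l1 with cytokines at 6 h, its fall with BRD0476, its interaction and its smaller cytokine effect at 12 h than at 6 h held under every alternative run. Single-gene results were tallied over all settings only for the members chosen by the naming rule above, not for the whole family. Of these results, 4713 were unchanged, 85 lost a call, 70 gained one and none reversed. The 4713 include results called in neither fit, so they are not a count of calls kept. A change of sign in a value called in neither fit was not counted. The small changes of bright members depended on scaling, and their causes were not tested. With 3 arrays a group, the size of change that can be called is limited. With cytokines at 6 h, members called higher numbered 2 after median centring, 17 after centring on the brightest 10% (which moved the median of all genes by 0.10) and 1 with only the arrays compared. Those called lower numbered 4 with quantile normalization, 0 with bright centring, the mean of probe sets or only the arrays compared, and 2 with dim genes left out or the trend. The median of members was -0.0114 with quantile normalization and 0.1113 with bright centring. At 12 h, those higher numbered 5 after median or bright centring, 4 with quantile normalization or dim genes left out, 0 with the replicate block and 1 with only the arrays compared. Those lower numbered 0 after either centring or with only the arrays compared, 6 with quantile normalization and 8 with the trend. The median was 0.0591 after median centring and 0.0355 after bright centring, both reversed, and -0.0579 with quantile normalization. Over all genes, 6012, 6386 and 6459 were called under these settings, in the same order.

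For BRD0476 with cytokines at 6 h, those higher numbered 0 after bright centring, with the mean of probe sets or only the arrays compared, and 2 with the trend. Those lower numbered 2 with quantile normalization, 11 after bright centring (median -0.0922, all genes -0.09), 3 with dim genes left out and 4 with the trend. Over all genes, 6318, 6678, 6167 and 6222 were called under these settings, in the same order. At 12 h, 1 was lower after median centring (median -0.0548) and 3 higher with quantile normalization (median 0.0589), and the median was -0.0226 after bright centring. For the interaction at 6 h, 1 was higher after median centring, with quantile normalization or dim genes left out, and 3 were lower after bright centring (median -0.0874). At 12 h, 1 was higher with quantile normalization (median 0.0449) or the trend, with medians of -0.0561 and -0.032 after median and bright centring. For the change of the cytokine effect with time, 1 was lower after median centring (median 0.0415, reversed) or with only the arrays compared, 5 with the trend, and 0 were higher with the mean of probe sets, and the median was -0.0997 after bright centring. With the mean of all probe sets, reversed values were, for Rrp1b, 0.2275 with cytokines at 6 h, -0.1206 with BRD0476 and cytokines at 6 h and -0.3882 for the interaction, for Ubtf -0.1198 at 6 h and 0.0057 for the change with time, and for Rps6ka3 -0.0065 for that change.

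Leaving out 1 array gave 4 to 9 members higher and 0 to 2 lower with cytokines at 6 h, 0 to 2 and 1 to 3 at 12 h, 0 to 1 and 1 to 2 for BRD0476 with cytokines at 6 h, 0 to 1 higher for the interaction at 6 h, and 2 to 4 lower for the change with time. Medians were then 0.0074 to 0.0279 and -0.0521 to -0.0177 with cytokines at 6 h and 12 h, -0.0132 to 0.0219 and 0.0078 to 0.0451 for BRD0476 with cytokines, -0.0111 to 0.007 and -7e-04 to 0.0112 for BRD0476 alone, -0.003 to 0.0269 and -5e-04 to 0.0367 for the interactions, and -0.0853 to -0.0493 for the change with time. Replicate numbers were not taken to pair arrays, since deviations of same-numbered arrays correlated at -0.478 to 0.722 (median -0.042, 21 of 84 pairs over 0.1). The 3 pairs of 6 h and 12 h arrays with cytokines and DMSO correlated at 0.42, 0.396 and 0.722. With the replicate block, 8 members were called with cytokines at 6 h and 3 at 12 h, in place of 9 and 5. The calls not made under the block were those of Rpl23a at 6 h (adjusted p = 0.0533) and of Rpl26l1 (0.0553) and Rpl23a (0.0564) at 12 h.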

Other observations

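The control probe set for 5S ribosomal RNA, which belongs to the large subunit, had SDs of 0.04 to 1.07 within the 8 groups. Its differences between groups were not tested. It averaged 6.47 ± 0.06 with cytokines and BRD0476 and 6.82 ± 0.04 with BRD0476 alone at 12 h. In the same groups at 6 h it averaged 6.62 ± 0.42 and 6.65 ± 0.32. It averaged 6.52 ± 0.65 with cytokines at 6 h against 6.70 ± 0.20 in untreated cells, and 6.82 ± 1.07 with cytokines at 12 h against 6.85 ± 0.36 in untreated cells (SD, n = 3 each).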
